A study of Mus musculus with 24 samples.

Results

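The genes described here make fatty acids, triglycerides and cholesterol. They were 42 mouse genes listed by name, 23 lipogenic (regulators of fatty acid synthesis, enzymes of fatty acid synthesis, desaturation, elongation and triglyceride assembly) and 19 sterol (regulators of cholesterol synthesis and its enzymes). Of these, 41 were found in the deposited table of 15323 genes, 22 lipogenic and 19 sterol, and Mogat1 was the name not matched. No measured value entered the rule that lists them, though the list was made with earlier results of these data known. Polyadenylated RNA was sequenced from the liver (median lobe) and the heart (left ventricle) of male mice aged 10 weeks. The mice were conplastic lines and their parental strains, in which a nuclear genome is combined with a mitochondrial genome (mtDNA) of the same or of another strain, and the study asked what such a mismatch changes. The 4 genotypes carry their nuclear genome before the colon and their mtDNA after it. Matched pairs are found in BL/6J:C57 and in NZB:NZB, while BL/6J:NZB has the BL/6J nucleus with NZB mtDNA, and NZB:C57 has the NZB nucleus with C57 mtDNA. The conplastic lines came from 10 generations of backcrossing, so nuclear segments of the mtDNA donor may remain. Each genotype and tissue had 3 libraries, each from the pooled RNA of 4 animals, so p-values rest on how much pools varied. Library titles carry the word mix for the BL/6J nucleus and rep for the NZB nucleus, and handling that followed this word and the effect of the nucleus cannot be told apart.

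Fatty acid synthesis starts in the cytosol with acetyl-CoA, which ATP citrate lyase (Acly) makes from citrate exported by mitochondria. Acetyl-CoA carboxylase (Acaca) and fatty acid synthase (Fasn) then build palmitate, and elongases (Elovl) and desaturases (Scd, Fads) modify it. Acyltransferases (Gpam, Agpat2, Dgat1, Dgat2) esterify the fatty acids to triglyceride, and lipins act within this route as phosphatidate phosphatases. Cholesterol synthesis runs from acetyl-CoA through mevalonate, farnesyl diphosphate and squalene to lanosterol, and from there through demethylation, reduction and desaturation steps. The transcription factors SREBP-1 (Srebf1) and ChREBP (Mlxipl) are known to drive the lipogenic genes in liver, SREBP-2 (Srebf2) drives the sterol genes, and Insig1 holds SREBP proteins in the endoplasmic reticulum when sterols are plentiful. The liver is a main site of both pathways, while the heart takes up most of its fatty acids and burns them.

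The values are normalised read counts as deposited, and a change is a difference of log2(value + 1), which understates the change of low genes. A gene was called when its adjusted p from limma was under 0.05, with Benjamini-Hochberg adjustment over all genes tested. In hearts 40 of the 41 genes were tested, since Elovl3 did not reach a value of 1 in at least 3 heart libraries. Recovered reads numbered 7294525 to 34974268 in a liver library and 3714278 to 12949956 in a heart library. Hepatocyte markers summed to between 121700 and 135100 in BL/6J livers and between 187900 and 233400 in NZB livers, and cardiomyocyte markers to between 31400 and 278200 in hearts, so the tissue labels were met. Several libraries stood apart. The 3 NZB:C57 hearts had the highest cardiomyocyte sums, from 272300 to 278200 against at most 49370 in the other hearts, and their 20 leading genes held 33.4% to 34.1% of the reads against 11.5% to 14.5%. BL/6J:NZB heart 3 had a summed hepatocyte level of 207.9, against 16.6 to 29.1 in the other BL/6J hearts, and NZB hearts ran from 50.9 to 110.8. The summed level of 7 adipocyte markers (Fabp4 left out) was 2.38 to 5.08 in BL/6J hearts and 14.6 to 96.9 in NZB hearts. With Fabp4 the sums of the nuclear genomes overlapped. They were then 310 to 369 in BL/6J:C57, 400.5 to 562 in BL/6J:NZB, 371 to 407 in NZB:NZB and 563 to 688 in NZB:C57 hearts. Cardiomyocyte markers summed to at most 1.15 in BL/6J livers, to 0.549 in NZB:C57 liver 1 and to between 49.7 and 173.9 in the other 5 NZB livers.

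Of the 41 genes, liver held more than heart for most. In BL/6J:C57 mice, 36 genes were lower and 5 higher in heart than in liver, where 39.8% of all genes tested were lower, 37.3% higher and 77% called in either direction. In the BL/6J:NZB mice 37 were lower and 4 higher (background 38.4% lower, 37.5% higher and 75.9% in either direction), in the NZB:NZB mice 37 and 3 (37.4%, 37.8% and 75.1%), and in the NZB:C57 mice 35 and 4 (39.9%, 39.6% and 79.5%). The 19 sterol genes were all lower in heart in each of the 4 genotypes, with medians of -4.09, -4.16, -4.47 and -4.37 on the log2 scale in the order above. The medians over all genes tested lay between -0.03 and 0.00. The lipogenic medians were -2.95, -3.40, -2.92 and -2.63. In bulk tissue, fewer cells of a type and less RNA per cell cannot be told apart.

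The genes higher in heart were all lipogenic. Besides the 3 described next, Pnpla3 was called higher in BL/6J:C57, BL/6J:NZB and NZB:C57 mice (0.56, 1.03 and 1.85) and Gpam in BL/6J:C57 mice (0.91), and edgeR called 4 higher genes in BL/6J:C57 mice. The BL/6J:C57 call of Pnpla3 ended in edgeR and without BL/6J:C57 liver 3, heart 1 or heart 3 (adjusted p up to 0.349). Acacb, the carboxylase whose product malonyl-CoA restrains mitochondrial fatty acid uptake, stood at 94.0, 116 and 81.2 in BL/6J:C57 livers and at 422, 345 and 385 in the hearts (log2 difference 1.98, adjusted p = 2.54e-11, limma). Lpin1, a phosphatidate phosphatase and nuclear coregulator, stood at 25.5, 56.95 and 45.8 in these livers and at 253, 214 and 221 in the hearts (2.47, adjusted p = 2.91e-09). Scd2, a desaturase of extrahepatic tissues, stood at 5.37, 5.75 and 3.78 in the livers and at 25.1, 25.3 and 20.5 in the hearts (2.05, adjusted p = 2.44e-10). The tissues did not overlap for these 3 genes, and each of the 3 was called higher in heart in all 4 genotypes. The mirror image was Scd1, the main desaturase of liver, at 3211, 5033 and 4030 in BL/6J:C57 livers and at 15.1, 13.3 and 11.3 in the hearts (-8.15, adjusted p = 5.66e-18). With values divided by library totals, which shifted the median of all genes by 0.74 in BL/6J:C57 mice, the tissue differences of Me1, Dgat1 and Dgat2 turned positive in BL/6J:C57 mice, and those of all 19 sterol genes stayed negative and called in every genotype.

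Per kilobase of annotated exon, Scd1 was the most abundant of the 41 genes in BL/6J:C57 livers, at a mean of 836, followed by Elovl3 at 671 and Dgat2 at 166. Insig1 followed at 153, and Pnpla3 was the lowest at 0.861. In BL/6J:C57 hearts the order per kilobase was led by Dgat2, followed by Me1 at 41.6, Acacb at 39.9, Gpam at 27.6 and Lpin1 at 23.7. The leading heart genes belonged to triglyceride assembly, NADPH supply and malonyl-CoA production, while the heart levels of the sterol enzymes Lss (0.277) and Sqle (0.339) were among the lowest.

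**Figure D1:**
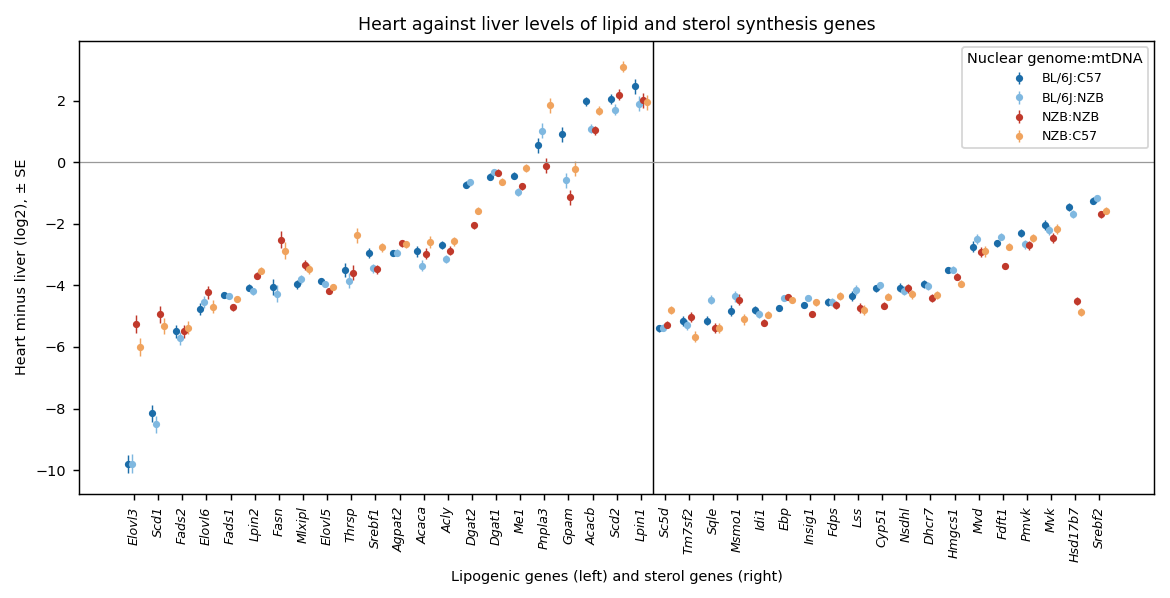
Difference between heart and liver for each of the 41 genes (log2 scale, heart minus liver, vertical axis), with the lipogenic genes on the left and the sterol genes on the right. Points are the 4 genotypes and bars are standard errors from the fit; all 19 sterol genes lie below 0, while Acacb, Scd2 and Lpin1 lie above 0 in each genotype.

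Among the regulators in liver, Insig1 and Mlxipl were each called in 1 genotype comparison, and the heart values of Srebf1, Insig1 and Thrsp are given with the heart comparisons. Srebf1 stood at 192, 236 and 211 in BL/6J:C57 livers, 181, 306 and 296 in BL/6J:NZB livers, 305, 354 and 345 in NZB:NZB livers and 209, 260 and 281 in NZB:C57 livers. These liver groups overlapped except that NZB:NZB lay above both C57-mtDNA groups, and none of the 4 liver comparisons of Srebf1 was called without a block (adjusted p from 0.119 to 0.631). Srebf2 stood at 59.3, 79.2 and 66.5, then 62.3, 73.6 and 63.9 in the livers with the BL/6J nucleus, and at 76.8, 90.03 and 91.5 (NZB:NZB) and 80.9, 71.8 and 93.3 (NZB:C57) in those with the NZB nucleus. In hearts Srebf2 ran from 24.8 to 32.5 over all 12 libraries, and it was called in no genotype comparison of either tissue without a block. Mlxipl stood at 674, 492 and 329 in BL/6J:C57 livers and at 443, 448 and 529 in BL/6J:NZB livers. It stood at 319, 314 and 338 in NZB:NZB livers and at 341, 364 and 329 in NZB:C57 livers, and in hearts it ran from 27.6 to 35.5. With NZB mtDNA the 3 NZB:NZB livers were lower in Mlxipl than the 3 BL/6J:NZB livers (log2 change -0.54, adjusted p = 0.0474, limma), a call that ended when any 1 of the 6 libraries was left out. Same-numbered livers of these 2 groups deviated together weakly (correlations of 0.139 to 0.172). With the replicate number as a block in limma, the adjusted p was 0.0592 for Mlxipl, 0.0286 for Srebf1 (0.40) and 0.0470 for Srebf2 (0.36). The block thus ended the call of Mlxipl and made calls of Srebf1 and Srebf2. Insig1 stood at 446, 517 and 460 in BL/6J:C57 livers and 432, 485 and 469 in BL/6J:NZB livers, against 698, 682 and 579 in NZB:NZB and 597, 597 and 505 in NZB:C57 livers. The rise of Insig1 with the NZB nucleus was called with NZB mtDNA (0.50, adjusted p = 0.00325) and not with C57 mtDNA (0.25, adjusted p = 0.0861). The difference between these was not called.

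Promoter sequences were taken from RefSeq (GRCm38.p6), which gave a window before the start site for 33 of the 42 names. SREBP proteins are known to bind sterol regulatory elements beside CCAAT boxes bound by NF-Y, and ChREBP and USF bind E-boxes. Both strands of the 250 bases before each start were searched for 3 motifs. The 33 genes had 43 windows, as some have several starts. A gene counted when any of its windows matched, among members and all genes alike. Some windows of counted genes therefore lack the motif, as for the CCAAT box in Dhcr7 and Pmvk. The CCAAT box, spelled CCAAT or ATTGG, was present in 16 of 16 sterol genes and in 10 of 17 lipogenic genes, against 37.5% of 27025 genes with a window of the same length. The sterol element TCACNCCAC was present in 2 genes, Hmgcs1 and Mlxipl, against 1.22% of all genes. The E-box CACGTG was present in 7 of 33 genes, against 6.86% of all genes. A match is a run of letters and not a shown binding site, and the absence of a match says only that these letters are not in the window. The 5 windows below were chosen after their values were seen, from members with a window whose nuclear differences are described below. Elovl3, Scd1, Scd2 and Dgat2 were not matched, and those of Mlxipl, Elovl6 and the other matched genes are not shown. The windows are printed 5′ to 3′ along the gene's strand. Capitals mark CCAAT or ATTGG, TCACNCCAC and CACGTG. Hmgcs1 lies at chr13:119690101-119690350 on the plus strand, Hsd17b7 at chr1:169969242-169969455 on the minus strand, and Sc5d at chr9:42264301-42264550 on the minus strand. Fasn lies at chr11:120824548-120824797 on the minus strand and Pnpla3 at chr15:84167566-84167815 on the plus strand. The Hsd17b7 window is shown up to where the annotated gene begins.
Hmgcs1: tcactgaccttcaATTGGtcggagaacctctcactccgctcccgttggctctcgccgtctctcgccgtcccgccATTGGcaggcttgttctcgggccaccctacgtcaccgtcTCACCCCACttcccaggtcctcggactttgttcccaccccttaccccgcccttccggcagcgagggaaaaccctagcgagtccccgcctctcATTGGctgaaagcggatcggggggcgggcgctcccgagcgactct
Hsd17b7: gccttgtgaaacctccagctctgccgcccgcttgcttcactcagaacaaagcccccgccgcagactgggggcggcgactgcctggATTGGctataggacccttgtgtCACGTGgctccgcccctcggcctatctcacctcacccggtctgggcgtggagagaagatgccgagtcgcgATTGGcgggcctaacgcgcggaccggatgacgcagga
Sc5d: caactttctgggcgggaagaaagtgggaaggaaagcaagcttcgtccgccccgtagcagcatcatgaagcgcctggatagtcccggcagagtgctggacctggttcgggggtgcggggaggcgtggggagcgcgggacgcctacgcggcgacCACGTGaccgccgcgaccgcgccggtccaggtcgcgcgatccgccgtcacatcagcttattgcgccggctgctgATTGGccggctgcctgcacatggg
Fasn: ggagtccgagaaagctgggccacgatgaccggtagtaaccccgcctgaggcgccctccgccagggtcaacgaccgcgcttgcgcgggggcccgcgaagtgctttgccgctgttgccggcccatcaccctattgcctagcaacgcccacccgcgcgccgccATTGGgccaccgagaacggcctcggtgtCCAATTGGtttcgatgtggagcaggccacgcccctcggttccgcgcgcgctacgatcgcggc
Pnpla3: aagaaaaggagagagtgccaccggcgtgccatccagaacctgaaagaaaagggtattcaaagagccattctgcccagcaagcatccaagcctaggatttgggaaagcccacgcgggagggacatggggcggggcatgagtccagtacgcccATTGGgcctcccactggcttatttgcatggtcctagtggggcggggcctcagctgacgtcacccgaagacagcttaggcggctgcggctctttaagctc
The sterol element of Hmgcs1 starts 137 bases before the start site. That of Mlxipl starts 136 bases before a start inside the annotated gene (window chr5:135106641-135106890), and the other Mlxipl window had none. Hmgcs1 and Fasn each held 3 CCAAT matches, of which 2 overlapped in the run CCAATTGG of Fasn. Hsd17b7 held 3 in the 250 bases searched and 2 in the part shown, and Sc5d and Pnpla3 held 1 each.

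Exchange of mtDNA on the BL/6J nucleus left the liver genes without a called change. Of 41 genes, 0 were called by limma when BL/6J:NZB livers were compared with BL/6J:C57 livers, where 0.0076% of all genes tested were called. The unadjusted p of 6 genes was under 0.05, and edgeR on the recovered reads called 0. The smallest adjusted p was that of Scd1, at 3211, 5033 and 4030 in BL/6J:C57 livers and 5624, 7328 and 6118 in BL/6J:NZB livers (log2 change 0.65, SE 0.16, adjusted p = 0.222). The groups did not overlap for 6 of 41 genes, beside 12.1% of all genes tested, higher in the 3 BL/6J:NZB livers for Scd1, Acly, Acaca, Gpam and Pmvk and lower for Fdft1, and none of these passed the adjusted threshold. Gpam stood at 48.9, 136 and 138 against 173, 198 and 159. The lipogenic median was 0.18 and the sterol median -0.03, beside -0.01 over all genes tested.

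In hearts of the BL/6J nucleus, NZB mtDNA was accompanied by lower levels of 2 triglyceride genes. Gpam, the glycerol-3-phosphate acyltransferase of the outer mitochondrial membrane, stood at 179, 166 and 208 in BL/6J:C57 hearts and at 133, 119 and 100 in BL/6J:NZB hearts (log2 change -0.65, SE 0.11, adjusted p = 0.0214, limma). Lpin1 stood at 253, 214 and 221 against 181, 168 and 145 (-0.48, SE 0.09, adjusted p = 0.0304). Every BL/6J:NZB heart was below every BL/6J:C57 heart for both genes. These were the 2 called of 40 tested (both lower), beside 0.935% of all genes in either direction and 0.507% lower. Acacb, at 422, 345 and 385 against 301, 281 and 283, did not pass (-0.41, adjusted p = 0.0544), and edgeR called 3 lower genes. Both calls ended when BL/6J:C57 heart 1 or 3 or BL/6J:NZB heart 2 or 3 was left out, with adjusted p up to 0.110 for Gpam and 0.163 for Lpin1. No sterol gene was called by limma or edgeR, and 2 of 19 had an unadjusted p under 0.05.

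On the NZB nucleus, C57 mtDNA in place of NZB mtDNA changed 1 of the 41 genes in liver, Pnpla3, which encodes a lipid droplet protein with lipase activity. Pnpla3 stood at 7.40, 9.73 and 6.86 in NZB:NZB livers and at 1.88, 3.10 and 3.62 in NZB:C57 livers, with no overlap (log2 change -1.23, SE 0.26, adjusted p = 0.00881, limma). The background was 8.09% of genes called in either direction and 4.44% lower. Without NZB:NZB liver 2 the adjusted p was 0.0514. With values divided by library totals, which shifted the median of all genes by -0.22, 17 members were called, all lower, and with only the 6 libraries compared 5 were called. The level was low, resting on 62 to 99 reads per NZB:NZB library and 16 to 24 per NZB:C57 library. The annotated span of Pnpla3 overlaps Gm49513 on the same strand and Gm20369 on the other. Whether counting used strand is not stated by the labels. The lipogenic median in this comparison was -0.18 and the sterol median -0.02. In the same livers the 4 endothelial markers were all called lower (median -1.22) and 4 of 6 fibroblast and stellate markers were called lower (median -0.96). Their part in the Pnpla3 result was not tested.

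In heart the same exchange came with 6 higher and 0 lower genes of 40 tested, all 6 lipogenic, beside 13% of all genes called higher and 2.89% called lower. The called genes were Thrsp, Acacb, Me1, Gpam, Dgat2 and Pnpla3. Thrsp, a nuclear protein that responds to thyroid hormone and promotes lipogenesis, stood at 21.4, 29.9 and 17.9 in NZB:NZB hearts and at 34.0, 37.5 and 35.1 in NZB:C57 hearts (log2 change 0.63, SE 0.14, adjusted p = 0.00459). Gpam stood at 88.7, 95.0 and 101 against 152, 132 and 115 (0.48, SE 0.11, adjusted p = 0.00555). Pnpla3 stood at 5.64, 10.4 and 6.25 against 14.0, 12.8 and 11.3 (0.73, SE 0.20, adjusted p = 0.0155), the direction opposite to that in liver. None of the 6 called genes overlapped between groups, and the share of all genes without overlap was not counted for this comparison. Dgat2, which makes triglyceride from diacylglycerol, stood at 111, 127 and 108 against 145, 138 and 139 (0.29, adjusted p = 0.0215). Acacb stood at 184, 248 and 226 against 294, 273 and 257 (0.33, adjusted p = 0.0258), and Me1, the malic enzyme that supplies NADPH, at 109, 95.7 and 82.8 against 110, 114 and 129 (0.30, adjusted p = 0.0337). The Me1 call ended in edgeR, with a replicate block, with only the 6 libraries compared and without any 1 of 4 libraries. No sterol gene was called by limma or edgeR, and 1 of 19 had an unadjusted p under 0.05.

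These 6 calls depended on how the NZB:C57 hearts were scaled. With values divided by library totals, the median of all genes shifted by -0.64 and 37 members were called lower and 0 higher. Relative to that shift, each of the 6 kept its positive direction. Leaving out single libraries gave between 3 and 8 called members, and the count was 3 without NZB:C57 heart 1 and also without NZB:NZB heart 3. Endothelial markers were called higher in NZB:C57 hearts (4 of 4, median 0.75), as were 4 of 6 fibroblast markers. Their part in these changes was not tested.

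The changes with C57 mtDNA on the NZB nucleus ran in opposite directions in the tissues. Over the 28 members above 5 in every library, the changes in liver and heart had a Pearson correlation of -0.87 across genes, and 24 of 28 had opposite signs. The 11 sterol members among them were all opposite in sign. All 7550 genes above 5 showed the same correlation, -0.87, with 81.0% of opposite sign, so the pattern was a feature of the table at large. On the BL/6J nucleus the exchange gave -0.41 over the 28 members (16 opposite) and -0.29 over the 7550 genes (61.3% opposite). Genes are not independent replicates, and pools of both tissues may come from the same animals. Whether the values of the tissues were adjusted together before deposit was not tested.

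**Figure D2:**
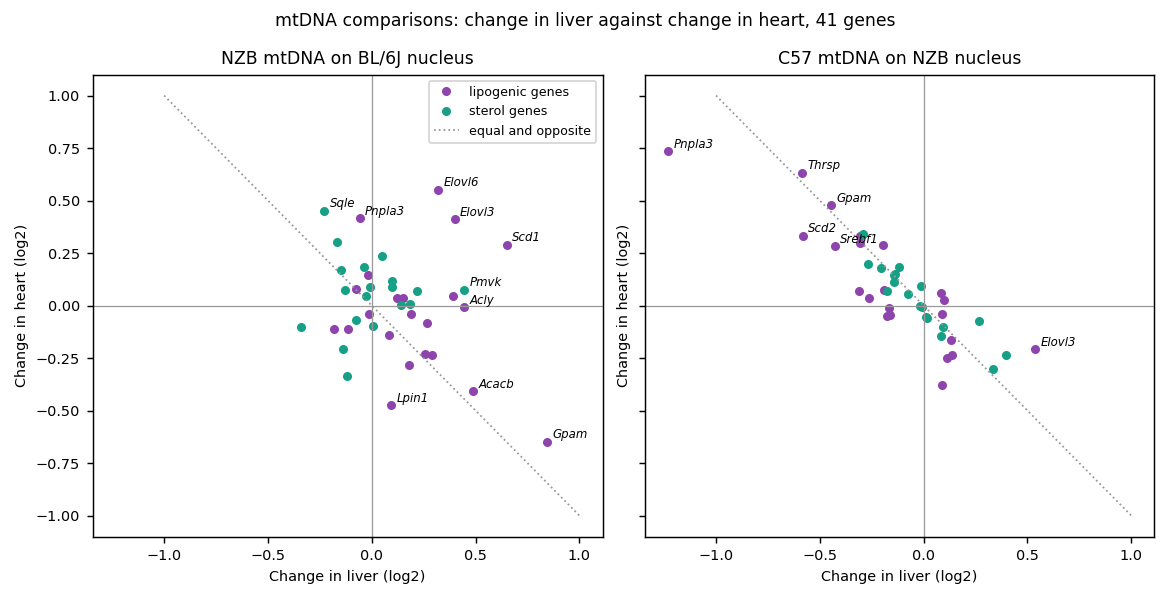
Change of each of the 41 genes in liver (horizontal axis, log2) against its change in heart (vertical axis, log2) for NZB mtDNA on the BL/6J nucleus (left) and C57 mtDNA on the NZB nucleus (right), with lipogenic and sterol genes in different colours and a dotted line for equal and opposite changes. On the right most points follow the dotted line, with Pnpla3 at -1.23 in liver and 0.73 in heart and Thrsp at 0.63 in heart.

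The effect of mtDNA was also compared between nuclear genomes. In liver 0 of 41 interaction terms were called by limma, 7 had an unadjusted p under 0.05, edgeR called 0, and 2.49% of all genes were called, 0.669% positive and 1.82% negative. Scd1 had the smallest adjusted p there, 0.0959. On the BL/6J nucleus the NZB mtDNA livers were above the C57 mtDNA livers, and on the NZB nucleus Scd1 stood at 2798, 2885 and 3218 (NZB mtDNA) against 3451, 3145 and 3191 (C57 mtDNA), with overlap. In heart 3 of 40 interaction terms were called, 1 positive and 2 negative, beside 11.2% of all genes (1.42% positive and 9.81% negative), and they belonged to Pnpla3, Lpin1 and Thrsp. The NZB nucleus minus BL/6J nucleus difference of the NZB mtDNA effect was -1.15 for Pnpla3 (SE 0.28, adjusted p = 0.0107), 0.45 for Lpin1 (SE 0.13, adjusted p = 0.0311) and -0.68 for Thrsp (SE 0.20, adjusted p = 0.0410). Pnpla3 stood at 2.73, 1.91 and 2.22 in BL/6J:C57 hearts and 2.53, 3.81 and 3.87 in BL/6J:NZB hearts, so its order by mtDNA was the reverse of that on the NZB nucleus, where the groups did not overlap. Lpin1 differed by mtDNA on the BL/6J nucleus and stood at 153, 186 and 182 (NZB:NZB) and 182, 168 and 178 (NZB:C57) on the NZB nucleus, where the groups overlapped. The Thrsp term ended without any of 8 single libraries and the Lpin1 term without any of 7, while the Pnpla3 term was called without each of the 12 in turn. With library totals the median of all heart terms shifted by 0.60, 25 members were called positive, and the Pnpla3 term had an adjusted p of 0.0971.

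More members were called between nuclear genomes than between mtDNA types, as was so for all genes tested. In liver with C57 mtDNA (NZB:C57 against BL/6J:C57), 10 of 41 genes were higher and 4 lower with the NZB nucleus, beside 13.1% and 14.8% of all genes. With NZB mtDNA (NZB:NZB against BL/6J:NZB), 14 were higher and 6 lower, beside 12.9% and 11.9%. These comparisons share no library, only the estimate of spread, while each shares libraries with the mtDNA comparisons above. Called in both with the same direction were 13 genes, which is 92.9% of the first list and 65.0% of the second, and 0 were called in opposite directions. Over all genes tested, 16.2% were called in both with the same direction, which is 58.1% and 65.2% of the lists. In heart 12 of 40 were higher and 7 lower with C57 mtDNA, beside 22.1% and 13.1% of all genes, and 11 were higher and 6 lower with NZB mtDNA, beside 15.5% and 13.6%. Called in both hearts with the same direction were 15 genes, 78.9% of the first list and 88.2% of the second, beside 17.6% of all genes tested and 49.9% and 60.5% of the lists.

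**Figure D3:**
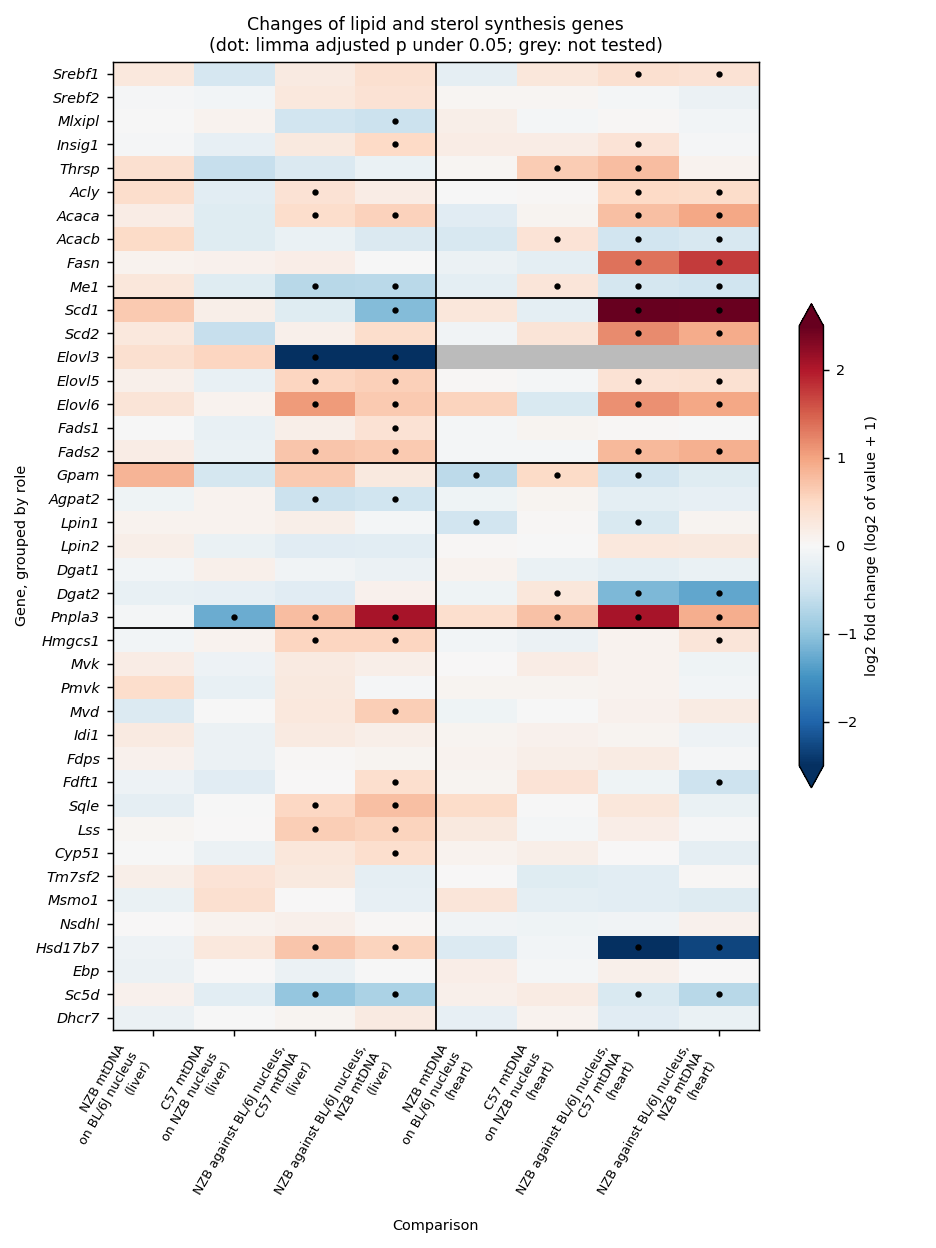
Colour gives the log2 change of each of the 41 genes (rows, by role) in the 8 genotype comparisons (columns, 4 in liver and 4 in heart), dots mark an adjusted p under 0.05 and grey marks genes not tested. Elovl3 in liver and Hsd17b7 in heart are the darkest blue, Scd1 in NZB hearts the darkest red, and the mtDNA columns hold 0, 1, 2 and 6 dots. The colour scale ends at 2.5 in each direction.

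Of the 41 genes, Elovl3 differed most between nuclear genomes in liver. It lies at chr19:46131897-46135694 on the plus strand (GRCm38) and encodes an elongase of saturated and monounsaturated very long chain fatty acids, and stood at 1818, 1221 and 934 in BL/6J:C57 livers and at 71.0, 78.4 and 48.9 in NZB:C57 livers (log2 change -4.28, SE 0.27, adjusted p = 4.65e-08, limma). With NZB mtDNA it stood at 1948, 1928 and 1268 on the BL/6J nucleus and at 41.3, 33.9 and 62.4 on the NZB nucleus (-5.21, SE 0.27). The 6 BL/6J livers and the 6 NZB livers did not overlap, with a gap from 78.4 to 934. The gene overlaps Pitx3 on the other strand. In hearts Elovl3 was near 0, with 0 to 5 reads in 11 libraries and 32 in BL/6J:NZB heart 3, the BL/6J heart with the highest hepatocyte sum.

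Other genes that extend or desaturate fatty acids were higher in NZB livers. Elovl6, which elongates palmitate to stearate, ran from 52.2 to 78.6 (median 66.6) in 6 BL/6J livers and from 112 to 138 (median 117.6) in 6 NZB livers, with changes of 1.06 (C57 mtDNA) and 0.66 (NZB mtDNA). Elovl5, an elongase of polyunsaturated fatty acids, ran from 416 to 517 against 575 to 792 (0.54 and 0.60). Fads2, the delta-6 desaturase, was called in both (0.69 and 0.66) and ran from 110 to 229 against 256 to 325. The Fads2 call ended in several of the leave-one-out fits, without NZB:C57 liver 1 or 2 in the first comparison and without any of 5 libraries in the second. The groups of these 3 genes did not overlap. Scd1 moved the other way where it was called, from 5624, 7328 and 6118 in BL/6J:NZB livers to 2798, 2885 and 3218 in NZB:NZB livers (-1.09, SE 0.16, adjusted p = 0.000157). With C57 mtDNA the Scd1 groups overlapped (-0.30, adjusted p = 0.163).

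Among the enzymes of fatty acid synthesis in liver, Acaca was higher (0.45 and 0.58) and Me1 lower (-0.70 and -0.68) with the NZB nucleus under both mtDNA types. Acaca ran from 88.2 to 125.5 in BL/6J livers and from 128 to 187 in NZB livers, and its C57 mtDNA call ended without BL/6J:C57 liver 1 or NZB:C57 liver 3. Me1 stood at 210, 180 and 269 against 144, 125 and 131 with C57 mtDNA, and at 256, 302 and 240 against 153, 185 and 158 with NZB mtDNA. Acaca shares 33.4% of its 31-base words with other annotated genes, mainly Gm5182, and Me1 30.0%, mainly with Gm7049, so reads of both may be divided among copies. Fasn was not called in any liver comparison, and ran from 343 to 482 in BL/6J livers and from 384 to 574 in NZB livers. Acly was called with C57 mtDNA (0.37, adjusted p = 0.0462), a call that ended without BL/6J:C57 liver 1 or any of the 3 NZB:C57 livers.

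For triglyceride synthesis in liver, Agpat2, the acyltransferase whose loss causes lipodystrophy, was lower with the NZB nucleus. It stood at 323, 281 and 232 against 185, 183 and 204 with C57 mtDNA (-0.54, adjusted p = 0.00287), and at 256, 273 and 238 against 179, 170 and 189 with NZB mtDNA (-0.50, adjusted p = 0.00457). Agpat2 overlaps Egfl7, an endothelial gene, on the other strand. In livers with NZB mtDNA, 3 of 4 endothelial markers (median 0.67) and 4 of 6 fibroblast and stellate markers (median 0.72) were higher with the NZB nucleus, and 0 of either list were called with C57 mtDNA by limma or edgeR, with an unadjusted p under 0.05 for 0 and 1. Their part in the liver changes was not tested. Pnpla3 was higher with the NZB nucleus, at 1.03, 1.03 and 1.37 against 7.40, 9.73 and 6.86 with NZB mtDNA (2.06, SE 0.26, adjusted p = 5.65e-05). With C57 mtDNA its groups overlapped (0.77, adjusted p = 0.0420), and that call ended without BL/6J:C57 liver 1 or 3, without NZB:C57 liver 2 or 3 and in edgeR. Dgat1, Dgat2, Gpam, Lpin1 and Lpin2 were called in no liver comparison of genotypes.

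The sterol enzymes called in liver were higher with the NZB nucleus, with 1 exception. Called higher under both mtDNA types were Hmgcs1, Sqle, Lss and Hsd17b7. Hmgcs1, which condenses acetyl-CoA units ahead of mevalonate, stood at 485, 535 and 620 against 910, 740 and 738 (0.54) with C57 mtDNA and at 531, 501 and 516 against 670, 858 and 728 (0.53) with NZB mtDNA. Sqle, the squalene epoxidase, stood at 82.7, 112 and 106 against 146, 122 and 166 (0.53), and at 91.5, 84.4 and 78.7 against 143, 153 and 138 (0.76). Lss, which closes the sterol ring system, stood at 72.8, 91.3 and 77.3 against 139, 117 and 116 (0.62), and at 81.6, 87.2 and 80.0 against 113, 135 and 121 (0.56). Fdft1, Cyp51 and Mvd were called higher with NZB mtDNA only (0.43, 0.43 and 0.62), which does not show that mtDNA changed their response, since no sterol interaction term was called in liver. The Cyp51 and Mvd calls ended in 3 and 4 of the 6 fits that each left out 1 library. In all, 4 of 19 sterol genes were higher and 1 lower with C57 mtDNA (median 0.24), beside 13.1% and 14.8% of all genes. With NZB mtDNA 8 were higher and 1 lower (median 0.22), beside 12.9% and 11.9% of all genes, and beside medians of -0.03 and -0.01 over all genes tested.

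The exception was Sc5d, the desaturase that sets the double bond of 7-dehydrocholesterol. In liver it stood at 496, 587 and 700 in BL/6J:C57 against 348, 308 and 256 in NZB:C57 (-0.96, SE 0.13, adjusted p = 7.47e-05), and at 631, 619 and 639 in BL/6J:NZB against 371, 368 and 350 in NZB:NZB (-0.79, SE 0.13, adjusted p = 0.000414). In heart it stood at 14.6, 13.2 and 11.4 against 10.0, 10.2 and 9.27 (-0.38, adjusted p = 0.0352), and at 12.5, 16.04 and 14.3 against 9.85, 7.48 and 8.11 (-0.69, adjusted p = 0.000779). NZB libraries lay below BL/6J libraries in both tissues without overlap, though the heart call with C57 mtDNA ended without any 1 of 5 libraries.

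Hsd17b7 (chr1:169949535-169969241, minus strand), a 3-keto-reductase of sterol demethylation, moved in opposite directions in liver and heart. In liver it stood at 54.0, 68.5 and 81.2 in BL/6J:C57 against 115, 106 and 107 in NZB:C57 (0.70, SE 0.13, adjusted p = 0.00123), and at 59.1, 68.9 and 57.4 in BL/6J:NZB against 94.0, 83.5 and 94.5 in NZB:NZB (0.55, SE 0.13, adjusted p = 0.00682). In heart it stood at 23.1, 22.4 and 25.9 in BL/6J:C57 against 2.72, 2.81 and 2.87 in NZB:C57 (-2.71, SE 0.14, adjusted p = 4.93e-11), and at 19.1, 17.3 and 19.6 in BL/6J:NZB against 2.94, 3.83 and 2.37 in NZB:NZB (-2.30, SE 0.14, adjusted p = 1.26e-09). No library of one nuclear genome overlapped the other in either tissue. The NZB heart values rested on 13 to 37 reads a library. No other sterol enzyme showed a heart change of this size: Fdft1 was lower with NZB mtDNA (-0.52, adjusted p = 0.00325), Hmgcs1 higher with NZB mtDNA (0.31, adjusted p = 0.0157), and the remaining sterol enzymes other than Sc5d were called in no heart comparison of nuclear genomes. The Hmgcs1 heart call ended without any of 3 libraries.

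**Figure D4:**
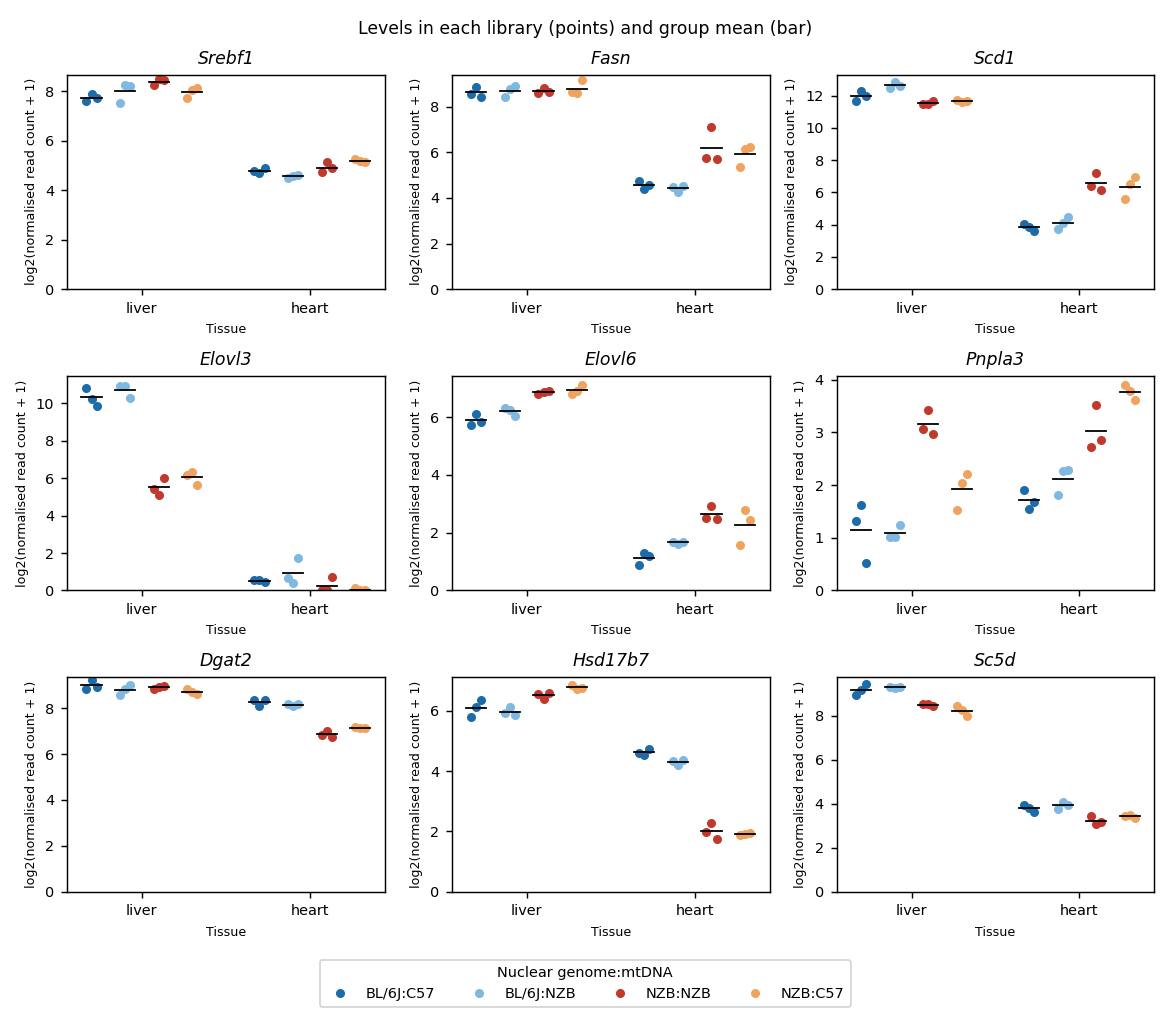
Levels of 9 genes on the log2(normalised read count + 1) scale (vertical axis) in each library (points) of the 4 genotypes in liver and heart, with bars at the group means. Elovl3 falls in NZB livers, Hsd17b7 lies higher in NZB livers and lower in NZB hearts, and in hearts Fasn and Scd1 lie higher and Dgat2 lower in every NZB library than in any BL/6J library.

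In heart, of 21 lipogenic genes tested, 11 were higher and 5 lower with C57 mtDNA (median 0.36), beside 22.1% and 13.1% of all genes, and 10 higher and 3 lower with NZB mtDNA (median 0.24), beside 15.5% and 13.6%. Of 19 sterol genes, against the same shares of all genes, 1 was higher and 2 lower, and then 1 higher and 3 lower (medians 0.06 and -0.11), beside medians of 0.01 and 0.02 over all genes tested. The genes higher in NZB hearts under both mtDNA types were Srebf1, Acly, Acaca, Fasn, Scd1, Scd2, Elovl5, Elovl6, Fads2 and Pnpla3. The lipogenic genes lower in both were Acacb, Me1 and Dgat2.

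Scd1 (chr19:44394455-44407879, minus strand) stood at 15.1, 13.3 and 11.3 in BL/6J:C57 hearts against 47.0, 89.7 and 125 in NZB:C57 hearts (log2 change 2.53, SE 0.29, adjusted p = 1.87e-06, limma). With NZB mtDNA it stood at 12.2, 16.4 and 21.6 against 84.3, 148 and 70.0 (2.48, SE 0.29). Fasn stood at 25.6, 20.2 and 22.9 against 40.6, 70.5 and 74.8 (1.35, SE 0.28, adjusted p = 0.000959), and at 21.5, 18.3 and 22.4 against 52.3, 137 and 50.5 (1.74, SE 0.28, adjusted p = 0.000171). Every NZB heart was above every BL/6J heart for both genes, and NZB hearts varied more among themselves. Scd2 stood at 25.1, 25.3 and 20.5 against 50.9, 57.6 and 54.5 (1.17), and at 18.6, 26.2 and 22.2 against 35.5, 52.2 and 42.8 (0.93). Elovl6 was low, at 0.820, 1.43 and 1.29 against 1.95, 5.86 and 4.42 (1.14), and at 2.24, 2.06 and 2.22 against 4.69, 6.61 and 4.56 (0.97). Acaca had a median of 12.6 and a highest value of 13.8 in the 6 BL/6J hearts, and a median of 21.7 and a highest value of 34.8 in the 6 NZB hearts, with no overlap (0.75 and 0.96). Pnpla3 stood at 2.73, 1.91 and 2.22 against 14.0, 12.8 and 11.3 (2.06, SE 0.20, adjusted p = 2.22e-07), and at 2.53, 3.81 and 3.87 against 5.64, 10.4 and 6.25 (0.91, SE 0.20, adjusted p = 0.00232). Srebf1 stood at 26.5, 24.8 and 28.6 against 36.9, 35.4 and 34.7 (0.41, adjusted p = 0.00462), and at 21.5, 22.6 and 23.5 against 25.3, 34.3 and 28.4 (0.36, adjusted p = 0.0143). The 2 Srebf1 groups of a comparison did not overlap, and the second call ended without NZB:NZB heart 2. Insig1 stood at 18.2, 18.9 and 17.4 in BL/6J:C57 hearts and at 22.3, 25.4 and 21.9 in NZB:C57 hearts (0.33, adjusted p = 0.0324). It stood at 20.6, 19.4 and 22.4 in BL/6J:NZB and at 16.8, 23.3 and 21.5 in NZB:NZB hearts, with overlap and no call, and the first call ended without any of 4 libraries. Thrsp stood at 17.3, 22.4 and 22.0 in BL/6J:C57 hearts and at 34.0, 37.5 and 35.1 in NZB:C57 hearts, with no overlap (0.77, adjusted p = 0.000409). With NZB mtDNA the Thrsp groups overlapped and were not called.

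Among lipogenic heart genes, Dgat2 (chr7:99153658-99182719, minus strand) had the smallest p for a decrease. It stood at 330, 271 and 325 in BL/6J:C57 hearts against 145, 138 and 139 in NZB:C57 hearts (-1.12, SE 0.08, adjusted p = 5.77e-09), and at 292, 274 and 287 against 111, 127 and 108 with NZB mtDNA (-1.30, SE 0.08, adjusted p = 2.27e-09). In liver, Dgat2 ran from 383 to 600.3 in BL/6J and from 390 to 501 in NZB libraries and was not called. Acacb stood at 422, 345 and 385 against 294, 273 and 257 (-0.48), and at 301, 281 and 283 against 184, 248 and 226 (-0.40). Me1 stood at 160, 150 and 171 against 110, 114 and 129 (-0.44), and at 140, 138 and 129 against 109, 95.7 and 82.8 (-0.51). Gpam (-0.47) and Lpin1 (-0.38) were lower with C57 mtDNA and were not called with NZB mtDNA (-0.30 and 0.07). The C57 mtDNA comparison shares the BL/6J:C57 hearts with the mtDNA comparison on the BL/6J nucleus, in which both genes were also called.

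Some markers of other cells moved with these genes. With the NZB nucleus and C57 mtDNA, 4 of 4 endothelial and 5 of 6 fibroblast markers were higher (medians 0.94 and 0.95), and with NZB mtDNA 0 of 4 and 4 of 6 (medians 0.10 and 0.52). The endothelial count of 0 is from limma, edgeR also called 0, and 1 marker had an unadjusted p under 0.05. Hepatocyte sums were 50.9 to 110.8 in NZB hearts and 207.9 in BL/6J:NZB heart 3. The Scd1 level of that library, 21.6, was the highest of the 6 BL/6J hearts and below every NZB heart. Summed macrophage markers (5 genes) ran from 47.0 to 65.0 in BL/6J hearts and from 86.5 to 121.1 in NZB hearts. The brown adipocyte markers Ucp1, Cidea and Dio2 summed to 25.5 to 30.3 in BL/6J hearts and 16.2 to 26.3 in NZB hearts. The part of endothelial, fibroblast, macrophage, brown adipocyte and hepatocyte markers in the changes was not tested.

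Adipocyte markers other than Fabp4 differed most. Of 6 adipocyte markers tested, 5 were called higher with the NZB nucleus under C57 mtDNA, and 4 higher and 1 (Fabp4) lower under NZB mtDNA. Summed without Fabp4, they stood at 4.10, 2.38 and 3.14 in BL/6J:C57 hearts, 4.62, 5.08 and 3.65 in BL/6J:NZB hearts, 26.9, 70.8 and 33.6 in NZB:NZB hearts and 14.6, 87.2 and 96.9 in NZB:C57 hearts. The complement factor Cfd led the sum and Adipoq, which encodes adiponectin, followed. Adrb3 was at 0 in the BL/6J:C57 hearts. The highest Fasn (137) and Scd1 (148) values were in NZB:NZB heart 2, the highest NZB:NZB heart for these markers. NZB:C57 heart 1, the NZB heart with the lowest sum, had the lowest Fasn (40.6) and Scd1 (47.0) of the 6 NZB hearts. Its sum (14.6), Fasn and Scd1 were all above every BL/6J heart. The same library had the highest Pnpla3, 14.0. The part of adipocytes in these levels was not tested.

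A further fit left out the 3 hearts highest in the sum without Fabp4 (NZB:NZB heart 2 and NZB:C57 hearts 2 and 3). This choice was made after seeing the data. The NZB hearts that remained, at sums of 14.6, 26.9 and 33.6, were still above every BL/6J heart, at most 5.08. The part of adipocytes in the changes was therefore not tested by this fit. With C57 mtDNA, where 1 NZB:C57 heart remained, the change was 0.81 for Fasn, 1.76 for Scd1, 0.48 for Acaca and 0.45 for Elovl6. With NZB mtDNA the changes of Srebf1 (0.24) and Acly (0.29) did not pass. With library totals, the C57 mtDNA comparison of hearts gave 5 higher and 25 lower members at a median shift of -0.52 over all genes. Relative to the shift, all 19 calls kept their direction.

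**Figure D5:**
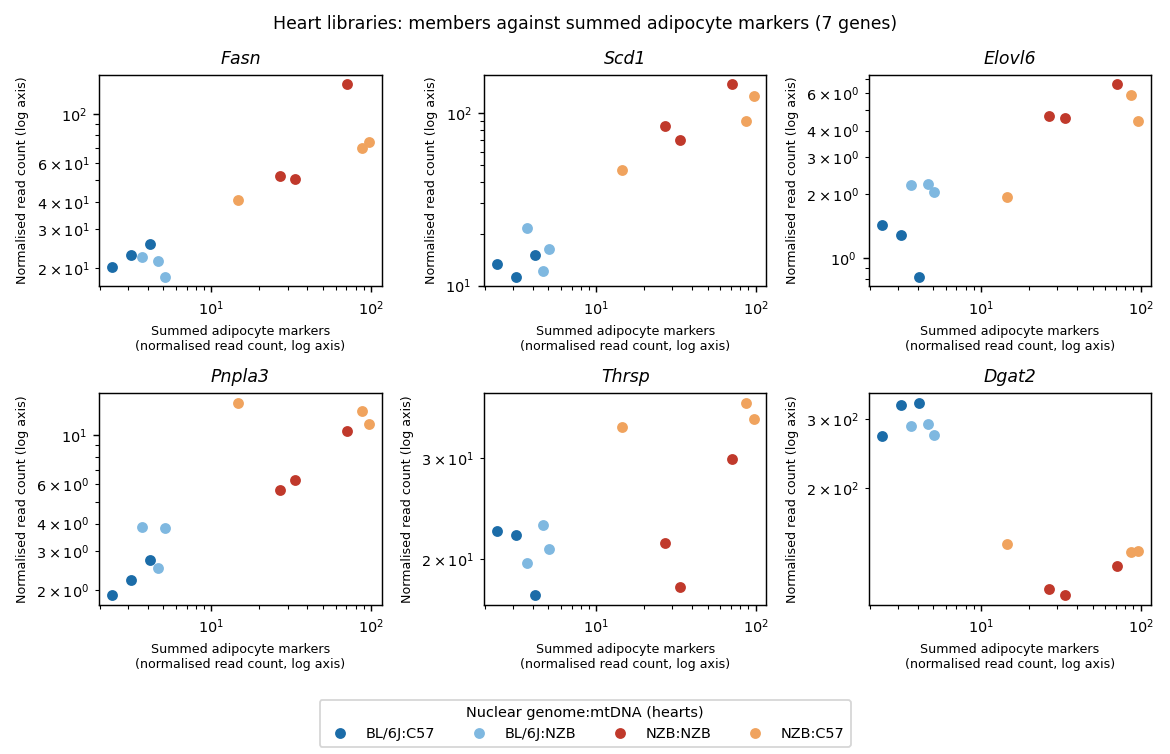
Normalised read counts of 6 genes (vertical axes, log scale) in the 12 heart libraries, coloured by genotype. Horizontal axes give the summed level of 7 adipocyte markers, without Fabp4 (log scale). NZB hearts, at sums of 14.6 to 96.9, lie above the BL/6J hearts in Fasn, Scd1 and Pnpla3 and below them in Dgat2, and NZB:C57 heart 1 lies lowest of the NZB hearts in Fasn and Scd1.

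Further genes of both pathways were taken from a list of 28 lipid and 19 sterol genes. In liver, 5 lipid genes were higher and 5 lower of 26 tested with C57 mtDNA, beside 13.1% and 14.8% of all genes, and 3 and 2 with NZB mtDNA, beside 12.9% and 11.9%. Gpat3, another glycerol-3-phosphate acyltransferase, had the smallest p, at group means of 6.60 and 30.7 (2.07) and of 6.28 and 28.9 (2.06). Elovl2, an elongase of polyunsaturated fatty acids, was higher under both (1.11 and 0.63), and Acss2, which activates acetate, was lower with NZB mtDNA (-1.20). Cideb, a lipid droplet protein, was lower in liver with C57 mtDNA (-0.66). Of 18 further sterol genes, 4 were higher and 1 lower, and then 5 and 1. In heart, 5 lipid genes were higher and 3 lower of 26 tested under each mtDNA type, and 5 and 4 of 17 sterol genes were higher and 1 lower under each. The shares over all genes were 22.1% higher and 13.1% lower with C57 mtDNA and 15.5% and 13.6% with NZB mtDNA. Mylip, the ligase that degrades lipoprotein receptors, was higher with C57 mtDNA (1.15). Mylip also differed between mtDNA types on the NZB nucleus, lower with C57 mtDNA in liver (-1.02) and higher in heart (0.78). The citrate carrier gene Slc25a1 was higher in NZB:C57 than in NZB:NZB livers (0.43), and Acsl1, which activates fatty acids, was lower in BL/6J:NZB than in BL/6J:C57 hearts (-0.30, adjusted p = 0.0477).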

How the data were processed

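RNA-seq libraries of liver and heart (4 genotypes, 3 pools each) were analysed as deposited. The authors deposited normalised signal per gene; per the submitters' processing notes, cutadapt 1.2.1, Bowtie2 2.0.6, RSEM 1.2.3 and edgeR were used with GRCm38, and their order and settings are not given in the sources used here. The values were whole multiples of 1 read in each library (100% within 0.01 reads), so whole reads were recovered for count tests.

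Changes were tested with limma 3.58.1 (trend) in R 4.3.3 on log2(value + 1), keeping genes at 1 or more in at least 3 libraries. The 12 libraries of a tissue shared a fit, and 24 the heart against liver fit, which takes liver and heart pools as independent although they may hold the same animals. Benjamini-Hochberg adjustment covered all genes tested. Labels do not say what replicate numbers mark. Deviations of same-numbered BL/6J:NZB and NZB:NZB livers correlated at 0.172, 0.139 and 0.148, and no other 2 groups compared met the limit of 0.1 in every pair. Over all same-numbered livers the correlations ran from -0.176 to 0.172. Counts and p-values are from the fit without a block unless a block is named. In the comparison of these livers the block changed the calls of Srebf1, Srebf2 and Mlxipl alone among members. The scripts were tested on simulated data. Alternatives were pseudocount 0.25, no filter, library totals, edgeR 4.0.16 on recovered reads, a replicate block, only the 6 libraries compared, and leaving out each library. All listed genes could be named, with values by library for called genes (up to 4 per role by p) and for Srebf1, Srebf2, Mlxipl and Insig1. Members, lists and alternatives were chosen with earlier results of these data known.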

Additional observations from a re-analysis of the deposited data

Results flagged for a closer look

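In heart, the effect of NZB against C57 mtDNA differed between the NZB and BL/6J nuclear genomes for 3 genes, by the interaction term of the limma fit with Benjamini-Hochberg adjustment over all genes tested. The difference of effects was -1.15 for Pnpla3 (SE 0.28, adjusted p = 0.0107), 0.45 for Lpin1 (SE 0.13, adjusted p = 0.0311) and -0.68 for Thrsp (SE 0.20, adjusted p = 0.0410). In NZB:C57 hearts Pnpla3 and Thrsp were above every NZB:NZB heart, whereas on the BL/6J nucleus the groups of both genes overlapped. Over all genes tested, 11.2% of heart interaction terms were called, a larger share than among the listed genes. The Thrsp and Lpin1 terms ended in several of the fits that left out a single library. With library totals the Pnpla3 term was not called.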

How the results depend on the processing

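Of 243 calls of single members, 196 kept their call and direction under every setting run, and 47 lost it or reversed under at least 1. Most of the 243 were heart against liver calls (41 in BL/6J:C57, 41 in BL/6J:NZB, 40 in NZB:NZB and 39 in NZB:C57 mice). The share kept among genotype calls alone was not counted. Scaling by library totals moved most: members called then numbered 17 (C57 mtDNA on the NZB nucleus) and 1 (interaction) in liver, and 37 (C57 mtDNA on the NZB nucleus), 30 (nuclear genome, C57 mtDNA) and 25 (interaction) in heart. It reversed, for C57 mtDNA on the NZB nucleus in heart, Thrsp (-0.049), Acacb (-0.369), Me1 (-0.399), Gpam (-0.221) and Dgat2 (-0.413), and for the nuclear genome with C57 mtDNA in heart, Srebf1 (-0.164), Insig1 (-0.23), Acly (-0.084) and Elovl5 (-0.215). For heart against liver it reversed Me1 (0.535), Dgat1 (0.456) and Dgat2 (0.245) in BL/6J:C57, Gpam (0.307), Dgat1 (0.541) and Dgat2 (0.242) in BL/6J:NZB, and Me1 (0.081) and Dgat1 (0.492) in NZB:NZB mice. With no filter, NZB mtDNA on the BL/6J nucleus in heart gave 0 calls by limma (2 with the filter, 8 at an unadjusted p under 0.05, edgeR 3) and the heart interaction gave 1. With only the 6 libraries compared, C57 mtDNA on the NZB nucleus in liver gave 5. The cause was not tested. Without the 3 hearts highest in adipocyte markers, a choice made after seeing the data, the nuclear comparisons of hearts gave 10 (C57 mtDNA) and 15 (NZB mtDNA).

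Apart from BL/6J:NZB and NZB:NZB livers, same-numbered libraries of no 2 groups compared all correlated over 0.1. With a replicate block, members called were 2 for C57 mtDNA on the NZB nucleus in liver and 1 for NZB mtDNA on the BL/6J nucleus in heart, and the other counts stayed within 1.5 times. Outside the comparison of BL/6J:NZB and NZB:NZB livers, the block made a call of Srebf1 for C57 mtDNA on the NZB nucleus in liver (adjusted p = 0.0451, limma). It ended those of Lpin1 (NZB mtDNA on the BL/6J nucleus) and Me1 (C57 mtDNA on the NZB nucleus) in heart.

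Leaving out 1 library at a time gave, in heart, 3 to 8 members called for C57 mtDNA on the NZB nucleus, 0 to 3 for NZB mtDNA on the BL/6J nucleus, 17 to 19 and 15 to 18 for the nuclear genome with C57 and NZB mtDNA, and 1 to 3 for the interaction. In liver these were 0 to 4, 0 to 0, 11 to 17, 17 to 19 and 0 to 1. Pnpla3 in liver and in BL/6J hearts, Elovl6 in all hearts and Hsd17b7 in NZB hearts rest on few reads. In BL/6J hearts Elovl6 had 7 to 31 reads a library and Pnpla3 12 to 54.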
